A study of Mus musculus with 42 samples.

Results

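The mRNA of the carotid intima, the endothelial lining of the artery and the cells attached to it, was compared between arteries exposed to low flow for 48 hr and sham-operated arteries. The comparison took the 3 low-flow pools (A, B and C) and the 3 sham pools (G, H and I) of untreated mice that were sequenced again with 100 bp paired-end reads, which made 6 of the 42 samples of the study. All came from male C57BL/6J (Jax) mice aged 6 to 7 weeks. For low flow, branches of the left carotid (external and internal carotid, occipital artery) had been tied, so that blood left the left carotid only through the superior thyroid artery. Sham arteries were exposed and looped with thread, but none of their branches was ligated. The intima was flushed out with Trizol, each pool joined the RNA of several arterial flushes, and polyA RNA was amplified with the SMARTer Universal Low Input kit. The 3 contralateral, high-flow pools of the ligated mice (D, E and F) and 8 libraries from other ligated mice, given IgG or PBS liposomes and read with 150 bp, were compared for the same genes. A flush holds whatever cells line or adhere to the lumen, and nothing sorted the endothelium from them.

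Endothelial cells sense the shear stress of passing blood. Steady laminar shear acts through MEKK3, ERK5 and the MEF2 transcription factors to maintain Klf2 and Klf4, which hold the vessel wall in a quiescent, anticoagulant and vasodilator state. Where shear is low and oscillating, this programme is lost, the endothelium displays leukocyte adhesion molecules and releases the contents of its Weibel-Palade bodies, and the cells can enter the cell cycle. In the mouse, carotid ligation creates such flow and is followed by the arrival of monocytes and neutrophils.

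Between 4064477 and 4881497 counts fell on genes in the sham pools and between 4440448 and 6794904 in the low-flow pools. Levels are given as normalised FPKM, the expected counts per kilobase of transcript and per library size after scaling by TMM, and values always stand in the order of pools A, B and C for low flow and G, H and I for sham. In low-flow pools A and B the 10 genes with most counts took 22.8% and 23.5% of all counts, against 10.4% in pool C and 9.27% to 9.88% in the sham pools. Across the 11164 genes tested, Pearson's r of log2(normalised FPKM + 0.5) between sham pool I and low-flow pools A, B and C was 0.935, 0.920 and 0.957, while sham pool H gave 0.851, 0.831 and 0.887. Sham pool I was thus nearer to low flow than pool H, and these correlations are descriptions across genes that share the same libraries.

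Sham pool H stood apart in another way, with 0.0121% of counts on markers of T, B and NK cells against 0.00126% and 0.00158% in pools G and I and 7.43e-04% to 0.00172% at low flow. Cd3e, a subunit of the T-cell receptor complex, had 0.273, 14.4 and 1.83 FPKM in sham arteries and 2.16, 2.00 and 1.53 at low flow (adjusted p = 0.241 by edgeR, or 0.00171 with library totals). What sets these pools apart was not tested.

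Endothelial markers were present in every pool, and leukocyte markers were higher at low flow. All 13 endothelial markers were detected in every pool, and their summed share of counts was 0.464%, 0.508% and 0.619% at low flow and 1.01%, 1.18% and 0.898% in sham arteries. Without the genes that were among the 10 with most counts in any of the 9 pools, Pecam1 among them, the shares lay nearer to each other, 0.364%, 0.454% and 0.415% against 0.516%, 0.560% and 0.499%. Of these 13 markers, 2 rose (Kdr and Emcn), 3 fell (Vwf, Tek and Cldn5) and 8 did not pass the test. Neither rise was called when low-flow pool A or B or sham pool G or H was left out. Markers of leukocytes of any kind took 0.152%, 0.208% and 0.186% of counts at low flow and 0.0126%, 0.0225% and 0.0409% in sham arteries, and all 10 rose. Macrophage and monocyte markers took 0.230%, 0.341% and 0.235% against 0.0223%, 0.0223% and 0.0683%, and 11 of 15 rose, or 8 of the 11 that also had enough counts to be tested in high flow against sham. Neutrophil markers took 0.0265%, 0.0534% and 0.0310% against 0.00159%, 0.00239% and 0.00508%. In these bulk samples, more or fewer cells of a type and more or less RNA per cell cannot be told apart.

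Smooth muscle markers also took a larger share of counts at low flow, and fibroblast markers a smaller one. Smooth muscle markers took 0.234%, 0.288% and 0.434% of counts at low flow against 0.0766%, 0.0518% and 0.168%, and Acta2 and Tagln rose. Acta2, smooth muscle actin, had 1923, 2368 and 1567 FPKM at low flow and 212, 110 and 543 in sham arteries (log2 fold-change 2.73, adjusted p = 0.00958, or 0.0535 without sham pool G), whereas Myh11, the smooth muscle myosin, had 0.274, 0.186 and 0.974 and 0.802, 1.50 and 0.344 FPKM (adjusted p = 0.392). Synpo2 and Mylk fell, so that 5 of 9 tested members did not pass. Without low-flow pool A or B neither fall was called, without sham pool H 1 was, and without sham pool G neither rise was. Fibroblast markers took 0.0130%, 0.0128% and 0.0663% at low flow against 0.137%, 0.131% and 0.124% in sham arteries, and 5 of 9 fell (8 without low-flow pool C). Red blood cell markers took 0.0376% to 0.166% at low flow and 0.135% to 0.310% in sham arteries, with 0 of 5 called (3 fell without low-flow pool C).

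Traces of tissues around the artery were small. Fat cell markers took at most 0.0301% of counts in the low-flow and sham pools (0.0346%, 0.0835% and 0.343% in the high-flow pools), with 1 of 2 called lower, Cfd, a call that was lost when any of low-flow pools A, B and C or sham pools G and I was left out. Platelet markers took 0.00190% to 0.00743%, with Gp1ba and Ppbp of 6 lower (neither without low-flow pool A or B, and 1 without low-flow pool C or sham pool G or H). Lymphatic endothelium had 1 of 3 lower, Lyve1 (2 without low-flow pool C), and Lyve1 had 0.992, 2.68 and 5.24 FPKM at low flow and 14.4, 18.2 and 14.5 in sham arteries. Of the 2 tested T, B and NK cell markers and the single skeletal muscle marker none was called, although 1 of the former rose without sham pool H. Nerve and glia had Mbp higher and S100b lower (Mbp was not called without low-flow pool A or B), and liver markers had 3 of 3 lower, of which Serpina1d is described below. Alb and Fgb of liver and Pax8, Nkx2-1, Foxe1 and Slc5a5 of thyroid were at 0 in all 6 pools, and no thyroid marker had enough counts to be tested.

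**Figure D1:**
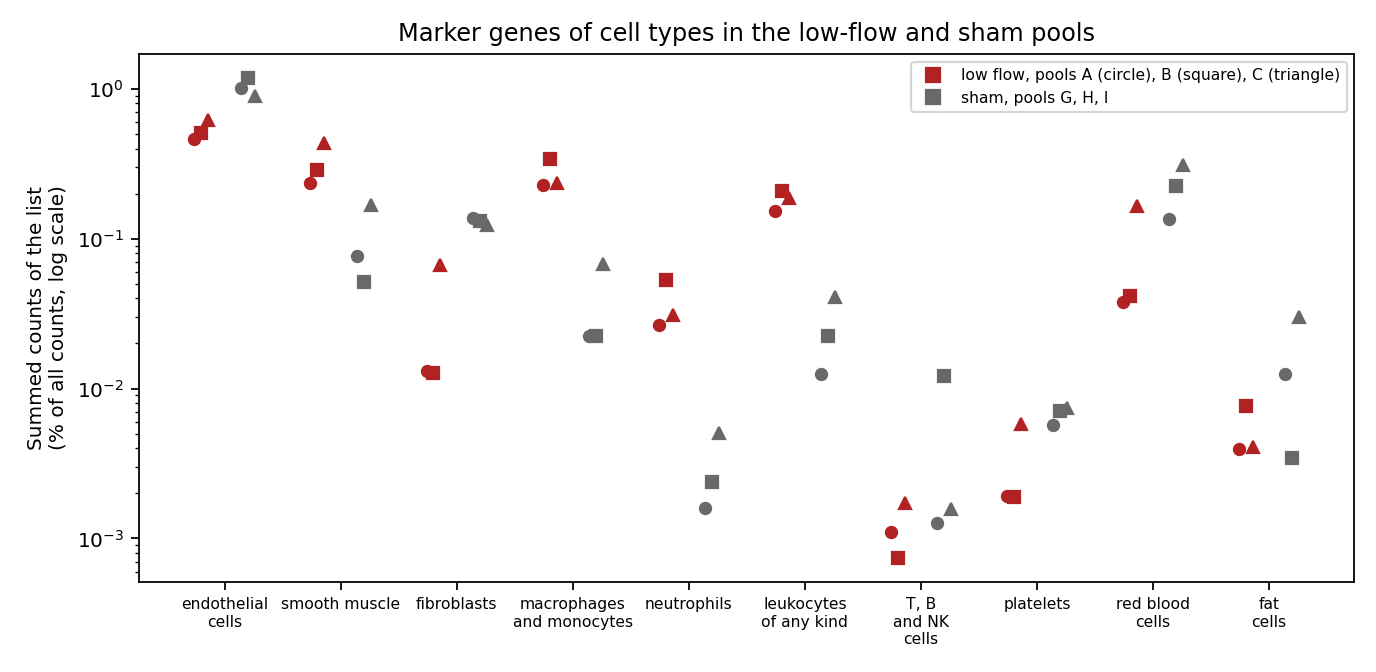
Summed counts of 10 marker lists as a percent of all counts (vertical axis, log scale) in each low-flow pool (red) and sham pool (grey). The 3 low-flow pools lie above the 3 sham pools for leukocytes of any kind, macrophages and monocytes, neutrophils and smooth muscle, and below them for endothelial cells and fibroblasts.

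Between low flow and sham 40.3% of the 11164 genes tested were called, 4499 genes with an adjusted p under 0.05 by edgeR's quasi-likelihood test with Benjamini-Hochberg adjustment. Of the genes tested, 20.6% were called higher at low flow (2304) and 19.7% lower (2195). At least 2-fold changes made up 1594 of the higher and 1275 of the lower calls, and at least 8-fold changes 206 and 54. The 3 low-flow pools lay wholly above or below the 3 sham pools in 56.5% of the genes tested, and in 4366 of the 4499 called. The median log2 fold-change over all genes tested was −0.04. The balance of higher and lower calls rested on the scaling. With library totals in place of TMM the median moved to −0.71 and the calls to 642 higher and 2716 lower, so that 19.1% of calls were higher instead of 51.2%, and changes are reported here relative to the TMM scale. Leaving out low-flow pool A or B gave 2820 or 2775 calls and leaving out sham pool G or H gave 2513 or 3008, while low-flow pool C or sham pool I left out gave 4757 or 4556. Of the genes tested, 415 had too few counts to be tested in high flow against sham, and 328 of these were called higher and 3 lower, since such genes enter the test mainly through their counts at low flow. A list's counts are therefore also given over the members tested in both comparisons, here called the restricted members, where this removes 2 or more, a choice made after the data were examined. Over all 10749 genes tested in both comparisons 18.4% were called higher and 20.4% lower, with a median of −0.08. The shares of genes called are the background for the gene lists that follow. The lists of fatty acid handling, antigen presentation, NF-kB, immediate early genes, the respiratory chain, matrix proteins, endothelial transcription factors, coagulation and interferon-stimulated genes had between 18.8% and 40.7% of tested members called in either direction, near or below that background. Some were nonetheless one-sided. Interferon-stimulated genes had 10 of 27 lower and 1 higher. The respiratory chain had 13 of 40 higher and NF-kB 5 of 17, each with 0 lower.

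Most genes that laminar shear maintains fell at low flow. Of the 18 tested genes of a list of shear-induced endothelial genes, 11 fell and 3 rose, with a median log2 fold-change of −1.24 against −0.04 over all genes tested (−1.78 with library totals, where all genes moved to −0.71). Between 9 and 12 members fell with any 1 pool left out. Klf2, the zinc-finger factor at the head of this programme (chromosome 8, 74842932 to 74845555 of mm9, as for all genes below), had 1.71, 0.904 and 3.37 FPKM at low flow and 25.6, 27.3 and 22.0 in sham arteries. All low-flow pools lay far below the sham pools, pool C the highest of them, and the log2 fold-change was −3.52 (SE 0.33, adjusted p = 0.00108, 11.4-fold lower). Klf4, its close relative (chromosome 4, 55540013 to 55545347), had 2.04, 1.35 and 4.02 FPKM against 31.6, 25.0 and 24.9 and was 10.5-fold lower (log2 fold-change −3.40, SE 0.33, adjusted p = 0.00108). The high-flow pools of the same surgery had 49.0, 34.0 and 48.2 FPKM of Klf2 and 56.7, 44.4 and 45.6 of Klf4, all above every sham pool.

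The promoter of Klf2 is shown because the shear pathway reaches this gene through a MEF2 site. The sequence covers the 250 bases before the RefSeq start on GRCm38.p6 (chr8:72318812-72319061, plus strand), and the capitals mark the match to the MEF2 consensus, 118 bases before the start.
Klf2: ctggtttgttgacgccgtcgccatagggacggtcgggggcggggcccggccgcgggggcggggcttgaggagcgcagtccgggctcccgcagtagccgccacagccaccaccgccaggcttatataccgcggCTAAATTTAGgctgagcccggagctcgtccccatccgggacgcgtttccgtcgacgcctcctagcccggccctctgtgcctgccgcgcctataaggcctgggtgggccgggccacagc
A MEF2 match on either strand was present in the 300-base promoter of 1 of 13 shear-induced genes with a sequence (7.69%), against 1.98% of the 8011 tested genes that have one and 3.70% of the 27025 genes of the table. The 1 gene was Klf2 itself, shown here for its MEF2 site, so that this share says nothing about the rest of the list.

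Other members were lower by less. Nos3, which makes nitric oxide (chromosome 5, 23870628 to 23890292), had 11.5, 17.6 and 16.4 FPKM at low flow and 28.2, 36.6 and 28.5 in sham arteries, and fell by 1.08 on the log2 scale (SE 0.22, adjusted p = 0.00712). Thbd, the thrombin receptor that starts the protein C pathway, had 31.0, 29.2 and 78.2 FPKM and 112, 127 and 86.6 (log2 fold-change −1.27, adjusted p = 0.0318). Low-flow pool C, at 78.2, almost reached sham pool I at 86.6, and the call was lost without low-flow pool A (adjusted p = 0.115) or B (0.112) or sham pool G (0.0819) or H (0.0810). Nqo1, a quinone reductase, had 5.33, 4.50 and 5.06 FPKM against 15.9, 16.4 and 14.0, and Bmx, a tyrosine kinase of arterial endothelium, 45.8, 27.9 and 56.0 against 156, 192 and 122. Their log2 fold-changes were −1.66 and −1.90 (adjusted p = 0.00131 and 0.00329). The 3 members that rose were Gja4, Hmox1 and S1pr1, and the list had 1 rise without low-flow pool A or B or sham pool G or H. Hmox1, heme oxygenase, is also made by macrophages and had 29.7, 40.4 and 41.8 FPKM at low flow and 10.2, 3.20 and 16.4 in sham arteries (log2 fold-change 1.87, adjusted p = 0.0122).

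**Figure D2:**
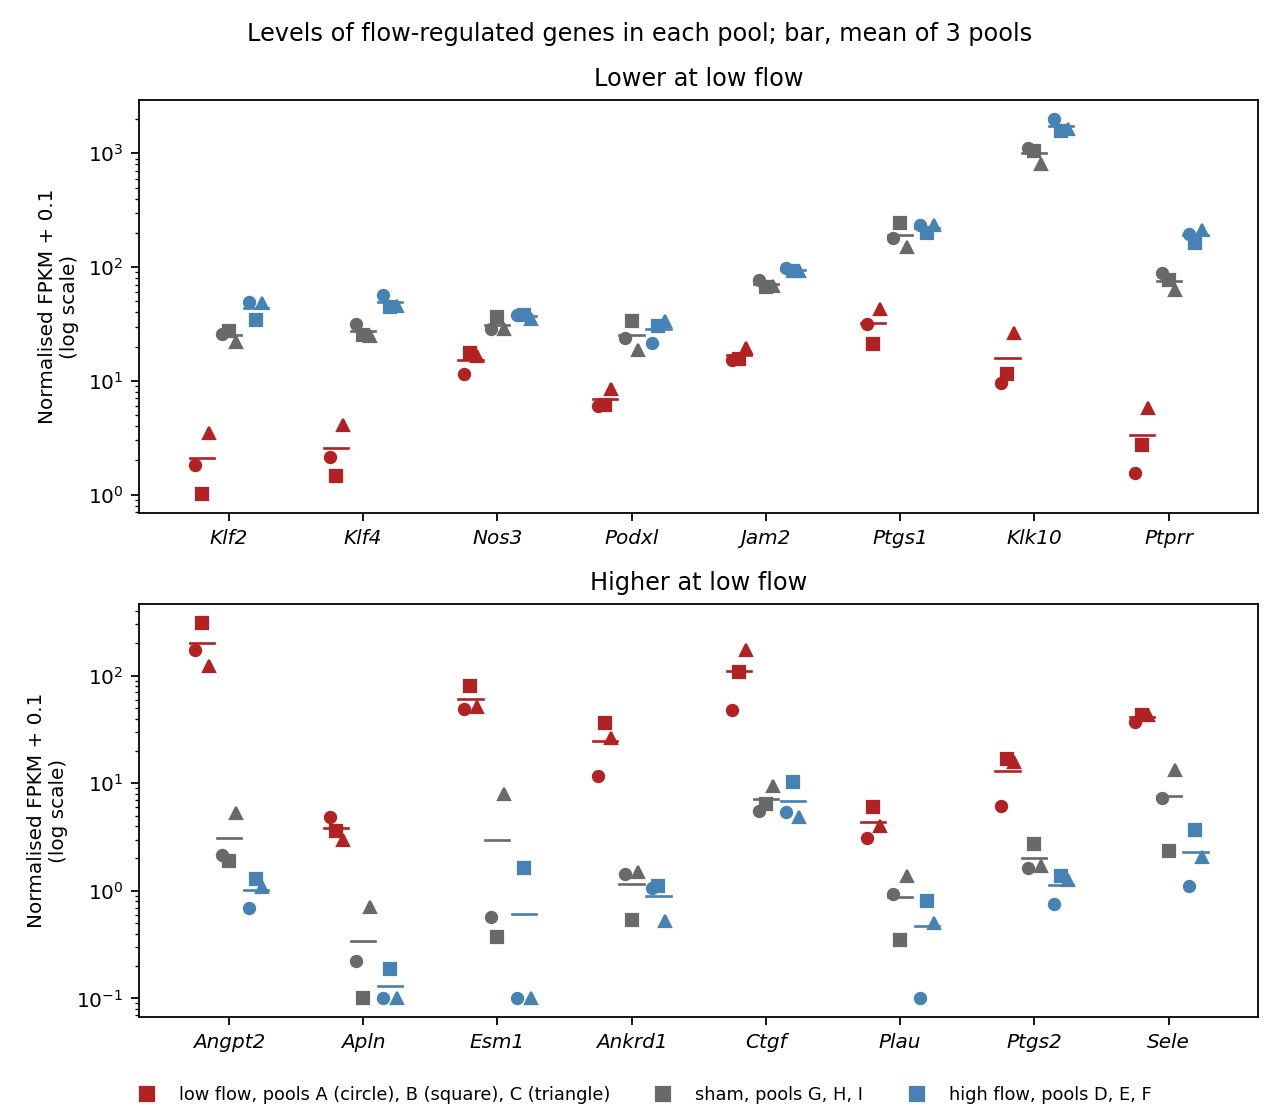
Normalised FPKM + 0.1 (log axis) of 16 flow-regulated genes in each low-flow (red), sham (grey) and high-flow (blue) pool, with a bar at the mean of 3 pools. For every gene shown the 3 low-flow pools lie on 1 side of the 3 sham pools, a condition by which part of these genes were chosen. For Klf2, Klf4, Klk10 and Ptprr the high-flow pools lie on the far side of the sham pools.

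Of 20 tested genes that disturbed flow is known to induce, 12 rose, 2 fell (Timp3 and Lox) and 6 did not pass, with a median log2 fold-change of 1.37 (0.68 with library totals, and 8 rises), and 8 rose without sham pool G. Of 15 restricted members 7 rose (median 0.90). Of the 2 falls 1 was left without low-flow pool A or B or sham pool G or H. Angpt2, an antagonist of the Tie2 receptor stored in Weibel-Palade bodies (chromosome 8, 18690263 to 18741562), had 173, 312 and 124 FPKM at low flow and 2.06, 1.80 and 5.22 in sham arteries. It had the largest increase among the genes named here, 65.0-fold (log2 fold-change 6.02, SE 0.55, adjusted p = 0.00101), and the high-flow pools had 0.597, 1.18 and 0.979 FPKM. Vcam1 and Icam1, the main receptors for rolling leukocytes to arrest on, were not called by edgeR. Vcam1 had 972, 913 and 783 FPKM against 596, 554 and 619 (log2 fold-change 0.56, adjusted p = 0.259, but 0.00739 by DESeq2) without overlap, and Icam1 163, 250 and 218 against 150, 182 and 160 (log2 fold-change 0.32, adjusted p = 0.337) with overlap.

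The angiopoietin pair changed in opposite directions. Angpt1, the agonist of Tie2 (chromosome 15, 42256273 to 42508523), had 0.254, 0.201 and 0.308 FPKM at low flow and 1.88, 2.99 and 1.46 in sham arteries (log2 fold-change −2.98, SE 0.43, adjusted p = 0.00196). Tek, which encodes Tie2 itself, had 46.9, 31.3 and 34.1 FPKM and 88.0, 96.0 and 68.6 (log2 fold-change −1.21, adjusted p = 0.00778). Apln, the ligand of the apelin receptor and a tip cell marker, had 4.77, 3.52 and 2.89 FPKM against 0.125, 0 and 0.611, with 13 counts in all over the sham pools, and Esm1, a proteoglycan of tip cells (chromosome 13, 113999867 to 114008306), 48.8, 80.3 and 51.6 against 0.467, 0.276 and 7.89. Esm1 rose by 4.32 on the log2 scale (adjusted p = 0.00713), and sham pool I, at 7.89 FPKM, was the only sham pool above 1. Of the 17 tested genes of angiopoietin, VEGF and apelin signalling, 7 rose (Angpt2, Esm1, Apln, Pgf, Kdr, Flt1 and Pdgfb) and 4 fell (Angpt1, Figf, Tek and Vegfc), with a median of 0.27 (−0.39 with library totals). Of 14 restricted members 4 rose and 4 fell (median 0.03). Without sham pool G 4 rose, with library totals 4 did, and without low-flow pool A or B or sham pool G or H 2 fell.

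Targets of the YAP and TAZ coactivators, which enter the nucleus when shear is disturbed, rose in part. Ankrd1, a nuclear ankyrin-repeat protein (chromosome 19, 36186455 to 36194334), had 11.6, 36.5 and 26.3 FPKM at low flow and 1.33, 0.439 and 1.39 in sham arteries (log2 fold-change 4.48, adjusted p = 0.00123). Ctgf, a matricellular growth factor modulator (chromosome 10, 24315248 to 24318489), had 48.4, 108 and 174 against 5.39, 6.29 and 9.38 FPKM (log2 fold-change 3.94, adjusted p = 0.00135). Low-flow pool C was highest for Ctgf and pool A lowest for both. Over the list of 14 tested effectors and targets 5 rose (Ankrd1, Ctgf, Cyr61, Nuak2 and Axl) and 2 fell (Amotl2 and Lats2), with a median of 0.27 (−0.41 with library totals, and 3 rises), and of 12 restricted members 3 rose. Neither fall was called without low-flow pool A or B or sham pool G or H, and 1 was without sham pool I.

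Adhesion molecules were called in shares near the background. Sele, the E-selectin that endothelium makes on activation (chromosome 1, 165978365 to 165987808), had 37.1, 43.4 and 43.0 FPKM at low flow and 7.14, 2.26 and 13.1 in sham arteries (log2 fold-change 2.42, SE 0.48, adjusted p = 0.00645), and sham pool H was the lowest of all. Selp, the stored P-selectin, had 304, 402 and 193 against 150, 129 and 176 FPKM (log2 fold-change 0.95, adjusted p = 0.0472), a call lost when any of low-flow pools A and B or sham pools G, H and I was left out (adjusted p = 0.106, 0.144, 0.149, 0.155 and 0.0730). In the other direction Jam2, a junctional adhesion molecule (chromosome 16, 84774368 to 84826173), had 15.0, 15.5 and 19.5 FPKM at low flow and 76.8, 67.1 and 68.5 in sham arteries, with little spread in either group (log2 fold-change −2.11, SE 0.18, adjusted p = 9.74e-04). Podxl, an anti-adhesive sialomucin of the luminal surface, had 5.87, 6.08 and 8.33 FPKM and 23.7, 33.7 and 18.7 (log2 fold-change −1.94, adjusted p = 0.00180). Of 15 tested adhesion molecules 3 rose (Sele, Mcam and Selp), 4 fell (Jam2, Podxl, Cd99l2 and Icam2) and 8 did not pass, 46.7% called against 40.3% over all genes tested, with a median of 0.37 (−0.34 with library totals, and 1 rise). Without low-flow pool C 5 rose. Pecam1 had 1062, 998 and 717 FPKM at low flow and 1423, 1660 and 1210 in sham arteries, below without overlap, with a log2 fold-change of −0.67 and an adjusted p of 0.270 by edgeR, and was called lower with library totals (log2 fold-change −1.43, adjusted p = 4.61e-05).

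Among junction proteins the connexins Gja4 and Gja1 rose. Gja4 (connexin 37) had 2818, 3393 and 846 FPKM at low flow against 390, 433 and 621, and low-flow pool C was nearer to the sham pools than to pools A and B. Its call (log2 fold-change 2.26, adjusted p = 0.0153) was lost without low-flow pool A (adjusted p = 0.0506) or B (0.0543) or sham pool G (0.0789) or H (0.0624). Gja1 (connexin 43), which marks sites of disturbed flow, had 43.9, 63.1 and 34.6 FPKM and 7.27, 1.50 and 20.2 (log2 fold-change 2.26, adjusted p = 0.0303), lost without low-flow pool A (0.0742) or B (0.0981) or sham pool G (0.0996). Gja5 (connexin 40) of arterial endothelium had 472, 486 and 235 against 402, 421 and 302 FPKM with overlap (adjusted p = 0.927), and Cdh5, VE-cadherin, 75.2, 62.5 and 49.3 against 54.6, 53.5 and 60.9 (adjusted p = 0.700). Of 16 tested junction genes 2 rose and 5 fell (Cdh13, Cldn5, Pard3, Tjp1 and Mllt4), with a median of −0.05 (−0.80 with library totals). Neither rise was called without low-flow pool A or B or sham pool G, 1 was without sham pool H, and 4 were without low-flow pool C. The falls numbered 2 without low-flow pool A or B or sham pool H and 1 without sham pool G.

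Vasoactive enzymes and peptides shifted without a common direction, 4 of 16 higher and 4 lower (median 0.04, or −0.69 with library totals). Ptgs1, the constitutive cyclooxygenase (chromosome 2, 36085946 to 36107792), had 31.8, 21.2 and 43.0 FPKM at low flow and 181, 246 and 151 in sham arteries, and Ptgs2, the inducible one, 6.05, 16.8 and 15.7 and 1.52, 2.62 and 1.60. The former fell by 2.63 and the latter rose by 2.70 on the log2 scale (adjusted p = 0.00146 and 0.00224). Ass1, which resynthesises arginine for nitric oxide, had 65.1, 94.3 and 95.7 against 312, 351 and 273 FPKM (log2 fold-change −1.91, adjusted p = 0.00163). These 3 genes were named among called members whose pools do not overlap, so that their separation is not a result. Edn1, the vasoconstrictor endothelin (chromosome 13, 42396639 to 42403358), had 345, 409 and 505 FPKM at low flow and 137, 113 and 117 in sham arteries (log2 fold-change 1.74, SE 0.27, adjusted p = 0.00263). Ddah1 also rose and Ace, like Nos3, fell.

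In the list of coagulation and fibrinolysis 4 of 20 genes rose and 4 fell (median −0.21, or −0.92 with library totals), and the 40.0% called match the 40.3% over all genes tested. Plau, urokinase, a protease that activates plasminogen (chromosome 14, 21655884 to 21662610), had 2.98, 5.96 and 3.88 FPKM at low flow and 0.838, 0.248 and 1.27 in sham arteries (log2 fold-change 2.34, adjusted p = 0.00690). Plau was named among called members whose pools do not overlap, so that its separation is not a result. Vwf, von Willebrand factor, had 27.5, 23.3 and 40.6 FPKM and 86.5, 101 and 68.6 (log2 fold-change −1.52, adjusted p = 0.00648). Plaur and Procr also rose, and F2rl1, Thbd and Pros1 fell. The list had 1 fall without low-flow pool A or sham pool G and 2 without low-flow pool B or sham pool H.

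More Notch and BMP genes fell than rose. In the Notch list 7 of 18 tested genes fell (Dll1, Bmx, Hey2, Hes1, Sox17, Ephb4 and Notch1) and Dll4 rose, with a median of −0.68 (−1.34 with library totals). Without sham pool H 4 fell, and Dll4 was not called without low-flow pool A or B or sham pool G or with library totals, while 2 members rose without low-flow pool C. Dll1, a Notch ligand, had 1.28, 2.04 and 1.56 FPKM at low flow and 8.36, 12.4 and 7.29 in sham arteries (log2 fold-change −2.59, SE 0.29, adjusted p = 0.00123). In the BMP and TGF-beta list 9 of 22 fell and 1 rose (median −0.41, or −1.10 with library totals), with 5 falls without low-flow pool A, 4 rises without low-flow pool C and 2 without sham pool I. Smad7, the inhibitory Smad, had 2.56, 1.39 and 2.90 against 6.63, 7.81 and 7.20 FPKM (log2 fold-change −1.64, adjusted p = 0.00232), and Id1, a target of BMP receptors, 60.8, 72.5 and 51.5 against 101, 109 and 131 (log2 fold-change −0.92, adjusted p = 0.00794). The list's single rise was Tgfbi, a matrix protein also made by macrophages, with 126, 257 and 111 FPKM at low flow and 4.91, 6.29 and 17.9 in sham arteries (log2 fold-change 4.05, adjusted p = 0.00184).

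Endothelial transcription factors were mostly not called, 2 higher (Ets1 and Elk3) and 6 lower (Foxc1, Foxc2, Tal1, Sox17, Gata2 and Foxo1) of 21 (median −0.12, or −0.77 with library totals). Erg, the factor that defines the lineage, had 9.23, 9.27 and 13.0 FPKM at low flow and 9.13, 10.7 and 14.0 in sham arteries with overlap (adjusted p = 0.680). Foxc1, a forkhead factor, had 3.89, 2.06 and 4.92 against 14.1, 18.7 and 12.4 (log2 fold-change −2.05, adjusted p = 0.00204), and Ets1, which drives angiogenic genes, 39.1, 32.6 and 29.7 against 13.4, 14.4 and 16.7 (log2 fold-change 1.15, adjusted p = 0.00324). With library totals neither rise was called. The falls numbered 3 without sham pool H, and 1 rise was called without low-flow pool A or B or sham pool G or H.

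Leukocyte genes rose together at low flow. Ptprc (CD45), carried by nearly all leukocytes (chromosome 1, 139959438 to 140071882), had 35.1, 32.9 and 29.3 FPKM at low flow and 1.19, 4.02 and 4.06 in sham arteries (log2 fold-change 3.35, SE 0.41, adjusted p = 0.00137). Coro1a, a leukocyte actin regulator, had 159, 273 and 124 FPKM and 6.27, 18.7 and 27.7 (log2 fold-change 3.36, adjusted p = 0.00257). Emr1 (F4/80) of macrophages had 5.42, 8.47 and 8.46 against 0.605, 1.25 and 2.42 FPKM, and Ctss, their lysosomal cathepsin S, 522, 625 and 332 against 17.1, 21.7 and 65.9 (log2 fold-changes 2.33 and 3.79, adjusted p = 0.00408 and 0.00198). Every low-flow pool lay above every sham pool for all 4 genes, a condition by which Ctss was chosen. Sham pool I was the highest sham pool for Coro1a, Emr1 and Ctss.

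Of 12 neutrophil markers 9 had enough counts to be tested against sham, but only 2 had in high flow against sham, so that most were tested through their counts at low flow and their number of rises is not a result. S100a8, a subunit of calprotectin (chromosome 3, 90472993 to 90473956), had 401, 888 and 147 FPKM at low flow and 9.01, 2.47 and 20.9 in sham arteries (log2 fold-change 5.41, adjusted p = 0.00225). Cxcr2, the receptor that guides neutrophils along chemokines, had 20.5, 33.3 and 14.2 against 0.129, 0.573 and 1.26 FPKM, and Mmp8, neutrophil collagenase, 17.1, 19.9 and 12.3 against 0.320, 0.869 and 1.28 (log2 fold-changes 5.01 and 4.23, adjusted p = 0.00123 and 9.74e-04). Low-flow pool B was highest for all 3 and sham pools G and H, at under 1 FPKM for Cxcr2 and Mmp8, were lowest.

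Interleukin-1 signalling carried 6 rises (Il1r2, Il1b, Il1rn, Aim2, Il18 and Il1rap) and 2 falls (Il18bp and Casp1) among 13 tested genes (median 0.33, or −0.32 with library totals). Of 9 restricted members 2 rose and 2 fell (median −0.16). These shares, 22.2% each way, were near the 18.4% and 20.4% over all genes tested in both comparisons. Without low-flow pool A 3 rose, with library totals 3 rose, and 1 fell without low-flow pool A or B. Il1b, the secreted cytokine (chromosome 2, 129190306 to 129196875), had 107, 140 and 66.8 FPKM at low flow and 2.07, 0.438 and 11.5 in sham arteries (log2 fold-change 4.43, adjusted p = 0.00422). Il1r2, the decoy receptor that binds it without signalling, had 327, 489 and 147 against 1.61, 1.15 and 17.4 FPKM, a log2 fold-change of 5.53 (SE 0.98, adjusted p = 0.00418). Casp1, the protease that matures the cytokine, was the reverse, with 14.0, 10.6 and 17.6 FPKM at low flow and 38.1, 40.5 and 32.9 in sham arteries (log2 fold-change −1.41, adjusted p = 0.00225). Sham pool I held 11.5 FPKM of Il1b and 17.4 of Il1r2, several times the other sham pools.

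Chemokines were mixed. Of 30 listed, 18 were tested, 5 rose (Cxcl12, Cxcl2, Ccl5, Cxcl5 and Cxcl16) and 4 fell (Cxcl9, Ccl11, Cxcl10 and Ppbp), with a median of 0.29 (−0.27 with library totals, and 1 rise). Of 16 restricted members 4 rose and 3 fell. Cxcl12, which retains and attracts CXCR4-bearing cells (chromosome 6, 117118553 to 117131385), had 399, 534 and 350 FPKM at low flow and 68.9, 45.3 and 83.3 in sham arteries (log2 fold-change 2.67, SE 0.32, adjusted p = 0.00137). Ccl2, the monocyte attractant, had 24.1, 59.6 and 22.6 against 5.60, 3.12 and 24.9 FPKM and was not called (adjusted p = 0.0909), and sham pool I lay within the low-flow range. It was called without sham pool I (adjusted p = 0.00320) and with no filter on low counts (0.0408). The rises numbered 2 without low-flow pool A or C or sham pool G, 3 without low-flow pool B or sham pool H and 8 without sham pool I, and no fall was called without low-flow pool A or B or sham pool H, and 1 was without sham pool G. NF-kB subunits and feedback inhibitors had 5 of 17 higher (Tnip1, Nfkbib, Nfkbie, Tnfrsf1b and Birc3) and 0 lower (median 0.29, or −0.39 with library totals, where none was called), with 3 rises without low-flow pool B and 2 without sham pool G.

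Of 27 interferon-stimulated genes 10 fell, 1 rose and 16 did not pass, or 10 and 0 of 25 restricted members (median −0.90, or −1.55 with library totals and 19 falls). They took 0.180%, 0.575% and 0.136% of counts in the sham pools and 0.0465%, 0.0441% and 0.131% at low flow, so that sham pool H stood apart and low-flow pool C was near sham pool I. Ifit1, an RNA-binding antiviral effector (chromosome 19, 34715361 to 34724499), had 1.95, 2.49 and 5.11 FPKM at low flow and 16.7, 25.9 and 9.87 in sham arteries (log2 fold-change −2.42, adjusted p = 0.00443), and Oas3, an oligoadenylate synthetase, was the rise, with 0.877, 1.13 and 0.832 against 0.0416, 0.0821 and 0.0370 (log2 fold-change 3.95, adjusted p = 0.00123). The number of falls was 4 without low-flow pool A or B, 6 without sham pool H and 16 without sham pool I. Of 18 antigen presentation genes Ctss rose and 4 fell (Psmb9, Psmb8, Psmb10 and Tapbp), with a median of 0.08 (−0.68 with library totals, and 9 falls). Without sham pool H 8 members rose, and 2 fell without low-flow pool A. Psmb9, a subunit of the immunoproteasome, had 20.9, 25.0 and 36.2 FPKM at low flow and 67.9, 101 and 49.4 in sham arteries (log2 fold-change −1.44, adjusted p = 0.00860).

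Complement genes changed in both directions. Those that rose were C5ar1, Cfp, C3ar1 and C1qb, all made by myeloid cells, and those that fell Serping1, C1ra, Cfd, Cd59a, Cfb and Cd55, out of 17 (median −0.93, or −1.56 with library totals). C5ar1, the receptor for the C5a anaphylatoxin, had 37.8, 62.7 and 33.4 FPKM at low flow and 2.29, 2.26 and 8.36 in sham arteries (log2 fold-change 3.32, adjusted p = 0.00240), and Cfp, properdin, 52.6, 94.5 and 55.8 against 6.18, 5.34 and 16.2 (log2 fold-change 2.83, adjusted p = 0.00233). Rises numbered 2 without low-flow pool A or sham pool G or H and with library totals, and falls 2 without low-flow pool A or B and 10 with library totals.

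Genes of DNA replication and mitosis rose nearly as a whole. In the list of DNA replication and nucleotide synthesis 39 of 41 members rose and 0 fell (median log2 fold-change 2.03, or 1.25 with library totals and 22 rises), and in the list of mitosis and cytokinesis 36 of 37 rose and 0 fell (median 2.11, or 1.45). Of the restricted members 33 of 35 and 31 of 32 rose, with medians of 1.91 and 2.09. Mcm5, a subunit of the replicative helicase (chromosome 8, 77633427 to 77652338), had 53.7, 96.4 and 33.1 FPKM at low flow and 4.01, 3.40 and 12.3 in sham arteries (log2 fold-change 3.18, SE 0.56, adjusted p = 0.00396). Rrm2, which makes deoxynucleotides, had 185, 197 and 71.1 against 9.28, 6.58 and 32.6 FPKM, and Plk1, a mitotic kinase, 28.6, 40.7 and 30.0 against 2.14, 0.712 and 8.09 (log2 fold-changes 3.20 and 3.12, adjusted p = 0.00630 and 0.00635). Cdk1, the kinase that starts mitosis, had 100, 74.4 and 53.7 FPKM and 7.00, 2.03 and 29.3, and Mki67, the proliferation marker, 9.07, 4.99 and 6.42 and 0.818, 0.288 and 3.50. Sham pool I stood between the other sham pools and the low-flow pools for each of these 5 genes, 3 or more times as high as sham pool H.

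With 1 pool left out, between 30 and 40 replication genes were called but between 8 and 37 mitosis genes. Cdk1 had a log2 fold-change of 2.55 (adjusted p = 0.0272) and Mki67 of 2.11 (adjusted p = 0.0356), and both lost the call without low-flow pool A (adjusted p = 0.0856 and 0.114), low-flow pool B (0.0724 and 0.0709) or sham pool G (0.0926 and 0.113). Of the mitosis list 9 members were called without low-flow pool A, 19 without low-flow pool B and 8 without sham pool G. Of the G1 regulators 10 of 19 rose and 4 fell (median 0.77, or 0.03 with library totals and 2 rises), and of 16 restricted members 7 rose. Cdkn1c, the p57 inhibitor of cyclin-dependent kinases (chromosome 7, 150644255 to 150646955), had 1.49, 0.862 and 2.64 FPKM at low flow and 8.45, 7.53 and 6.51 in sham arteries (log2 fold-change −2.06, adjusted p = 0.00316). The G1 rises numbered 6, 4, 5 and 5 without low-flow pools A and B and sham pools G and H, and the falls 1 without low-flow pool A or B and 2 without sham pool G.

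Promoters of these genes are shown because the replication and mitosis lists had the highest shares of rises among the cell cycle lists and differ in how often they hold E2F and CHR letters, while CCAAT is common in both. Each sequence covers the 250 bases before the RefSeq start on GRCm38.p6, and all motifs were searched on both strands. In Mcm5 the capitals mark an E2F match, which is TTTCCCGC or TTTGGCGC, and the CCAAT box. In Cdk1 and Mki67 they mark the cell cycle homology region (CHR), whose letters are TTTGAA, and the CCAAT box. The marked matches do not overlap each other. Mcm5 lies at chr8:75109259-75109508 (plus strand), Cdk1 at chr10:69352913-69353162 (minus strand) and Mki67 at chr7:135716380-135716629 (minus strand).
Mcm5: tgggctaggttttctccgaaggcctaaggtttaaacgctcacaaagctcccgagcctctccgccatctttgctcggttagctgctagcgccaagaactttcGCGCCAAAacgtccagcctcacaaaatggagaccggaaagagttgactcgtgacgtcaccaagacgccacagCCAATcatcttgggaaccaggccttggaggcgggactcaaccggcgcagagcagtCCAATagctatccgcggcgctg
Cdk1: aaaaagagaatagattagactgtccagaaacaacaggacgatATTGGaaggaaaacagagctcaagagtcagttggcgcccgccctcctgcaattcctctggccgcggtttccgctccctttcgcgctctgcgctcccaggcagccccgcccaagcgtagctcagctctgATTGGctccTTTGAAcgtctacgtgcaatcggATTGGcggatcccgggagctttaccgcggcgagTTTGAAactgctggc
Mki67: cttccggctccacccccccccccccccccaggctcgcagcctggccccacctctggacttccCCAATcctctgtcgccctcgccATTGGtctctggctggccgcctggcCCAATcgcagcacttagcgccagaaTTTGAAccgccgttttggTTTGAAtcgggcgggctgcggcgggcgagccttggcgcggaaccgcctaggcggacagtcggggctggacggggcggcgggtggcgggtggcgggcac
The E2F match of Mcm5 stood 149 bases before the start and its CCAAT boxes 77 and 22 bases, the CHR matches of Cdk1 71 and 15 bases and those of Mki67 116 and 98 bases. In the 300-base promoters E2F letters were present in 10 of 32 replication genes with a sequence (31.2%), 0 of 30 mitosis genes and 3.56% of the 8011 tested genes that have one. CHR letters were present in 23 of 30 mitosis genes (76.7%), 4 of 32 replication genes (12.5%) and 14.2% of the tested genes, and CCAAT in 76.7%, 62.5% and 43.5%. Over all 27025 genes of the table the shares were 1.80% for E2F, 20.2% for CHR and 41.1% for CCAAT. A match says only that these letters are in the window.

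Genes that build ribosomes rose too. Of 29 ribosome biogenesis genes 27 rose and 0 fell (median 1.38, or 0.78 with library totals and 6 rises), and between 23 and 27 rose with any 1 pool left out. Myc, the factor that drives them (chromosome 15, 61816946 to 61821929), had 30.4, 71.2 and 56.2 FPKM at low flow and 13.5, 5.41 and 15.6 in sham arteries (log2 fold-change 2.16, adjusted p = 0.00571). Nop56, a protein of the particles that modify ribosomal RNA, had 194, 234 and 165 against 58.8, 51.4 and 67.7 FPKM, with 0.22 as SE of a log2 fold-change of 1.70 (adjusted p = 0.00167). Myc belongs to the immediate early list, of which 4 of 19 rose (Fosl1, Myc, Fos and Fosl2) and 2 fell (Jund and Dusp1, with 1 fall in the list without low-flow pool A or sham pool G or I), with a median of 0.48 (−0.13 with library totals).

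Cytosolic ribosomal proteins were highest in low-flow pools A and B. They took 6.60% and 6.82% of counts there, 3.74% in pool C and 2.52% to 3.79% in the sham pools, and 30 of 36 were called higher (median 1.63, or 0.71 with library totals and 15 rises). The 3 low-flow pools stood apart from the sham pools for only 13 of 36, against 56.5% of all genes tested. None was called without sham pool G or H, and 1 without low-flow pool A or B. Rplp0, a stalk protein of the large subunit, had 5971, 7233 and 1533 FPKM at low flow and 899, 808 and 1334 in sham arteries (log2 fold-change 2.25, adjusted p = 0.0265, and 0.0747, 0.0841, 0.114, 0.108 and 0.0508 without low-flow pools A and B and sham pools G, H and I). Genes of this family share reads with processed pseudogenes, so their values are uncertain. Expected counts were not whole numbers for 19.3% and 18.3% of all genes in pools A and B, against 9.83% in pool C and 6.56% to 9.13% in the sham pools, and the part of this in the result was not tested. In the treated mice described below, 36 of 36 were called higher at low than at high flow with IgG and with PBS liposomes.

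The endoplasmic reticulum list had 14 of 23 members higher and 3 lower (median 1.09, or 0.32 with library totals and 5 rises). Ddit3, Trib3 and the co-chaperone Dnajb9 fell, and 6 members did not pass. Manf, a secreted chaperone-associated factor, had 245, 324 and 106 FPKM at low flow and 53.8, 28.6 and 65.3 in sham arteries (log2 fold-change 2.16, adjusted p = 0.00742), and Hspa5, the chaperone BiP, 1956, 2458 and 826 against 357, 285 and 392 (log2 fold-change 2.31, adjusted p = 0.00983, but 0.0552 without sham pool G and 0.0516 without H). Ddit3 (CHOP), the pro-apoptotic factor, had 8.91, 5.18 and 12.3 FPKM and 34.0, 22.9 and 20.1, a log2 fold-change of −1.50 (adjusted p = 0.00808). Rises numbered 9, 8, 5 and 6 without low-flow pools A and B and sham pools G and H.

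Amino acid and one-carbon synthesis had the highest median of the lists that are not cell markers, 2.33 (1.56 with library totals), with 14 of 15 members higher and 0 lower, and 13 or 14 with any 1 pool left out. Of 12 restricted members 11 rose (median 2.16). Phgdh, the first enzyme of serine synthesis (chromosome 3, 98117093 to 98143913), had 22.5, 28.1 and 24.7 FPKM at low flow and 3.46, 3.31 and 6.26 in sham arteries (log2 fold-change 2.48, SE 0.26, adjusted p = 0.00112). Mthfd2, the mitochondrial folate enzyme, had 68.0, 90.8 and 66.2 against 7.30, 7.02 and 20.5 FPKM, Shmt1, which passes serine's carbon to folate, 8.27, 10.1 and 6.76 against 0.285, 0.281 and 1.27, and Asns, asparagine synthetase, 34.5, 38.6 and 32.9 against 2.04, 0.302 and 7.53. Their log2 fold-changes were 2.65, 3.66 and 3.37 (adjusted p = 0.00241, 0.00153 and 0.00634). Sham pool I was the highest sham pool for all 4.

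Other metabolism was less uniform. Glycolysis genes had 11 of 17 higher and Pfkfb3 lower (median 0.82, or 0.13 with library totals and 5 rises), with 5 rises without low-flow pool B or sham pool H and 2 without sham pool G, and Pfkfb3 was not called without low-flow pool A or B or sham pool G or H. Respiratory chain subunits had 13 of 40 higher and 0 lower (median 0.68, or −0.10 with library totals and 1 rise), a count of 4, 1 and 24 without low-flow pools A, B and C and of 2 without sham pool G or H. Fatty acid genes had 2 of 16 higher (Angptl4 and Acsl1) and Cpt1a lower (median 0.27, or −0.44 with library totals). They gave 4 rises without low-flow pool C or sham pool I and 1 without sham pool G, with 3 falls without low-flow pool C and 0 without low-flow pool A. Angptl4, an inhibitor of lipoprotein lipase (chromosome 17, 33910695 to 33918520), had 44.6, 137 and 36.9 FPKM at low flow and 1.55, 0.815 and 9.19 in sham arteries (log2 fold-change 4.18, adjusted p = 0.00660). NRF2 target genes had 8 of 18 higher and 2 lower (median 0.45, or −0.25 with library totals), with 4 rises without low-flow pool A or B or sham pool G or H, 5 without sham pool I, and 1 fall without any of these 5 pools. Slc7a11, the cystine importer, had 1.60, 1.74 and 0.952 against 0.106, 0.168 and 0.227 FPKM (log2 fold-change 2.99, adjusted p = 0.00146).

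Matrix proteins were called no more often than other genes, 34.6% of 26 against 40.3%. Eln, elastin (chromosome 5, 135179651 to 135223111), had 25.0, 32.1 and 49.9 FPKM at low flow and 200, 150 and 191 in sham arteries (log2 fold-change −2.37, SE 0.31, adjusted p = 0.00163), and Col1a2, a chain of type I collagen and a fibroblast marker, 7.50, 7.04 and 17.3 against 30.5, 29.1 and 29.3 (log2 fold-change −1.50, adjusted p = 0.00922). Thbs1, thrombospondin, had 421, 497 and 343 FPKM and 73.8, 46.1 and 104 (log2 fold-change 2.46, adjusted p = 0.00343). Of 26 matrix proteins 5 rose (Thbs1, Sparc, Lamb1, Col8a1 and Col5a2) and 4 fell (Eln, Col1a2, Lox and Col5a1), with a median of 0.16 (−0.48 with library totals, 3 rises and 7 falls). Rises numbered 2 without low-flow pool A or B or sham pool G and 3 without H, and falls 7 without low-flow pool C.

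Among matrix proteases and their inhibitors 8 of 22 rose and 4 fell (median 0.40, or −0.28 with library totals and 5 rises). Of 16 restricted members 3 rose and 4 fell (median −0.07), shares of 18.8% and 25.0%. Over all genes tested in both comparisons the shares were 18.4% and 20.4%. Timp2 and Timp4, inhibitors of matrix metalloproteases, had 20.9, 14.6 and 32.8 and 0.914, 0.870 and 3.99 FPKM at low flow against 105, 121 and 84.1 and 12.8, 17.8 and 12.5 in sham arteries (log2 fold-changes −2.21 and −2.71, adjusted p = 0.00198 and 0.00370). Mmp9, gelatinase B of neutrophils and macrophages, had 2.14, 8.27 and 3.90 against 0.0625, 0.123 and 0.557 FPKM (log2 fold-change 4.08, adjusted p = 0.00369), and Timp1 was the inhibitor that rose, a call lost with library totals (adjusted p = 0.274) and without low-flow pool A (0.0591) or B (0.101) or sham pool G (0.0938) or H (0.0524). Without low-flow pool A or sham pool G 5 rose, and 2 fell without low-flow pool A. Of 12 integrins 5 rose (Itga2, Itgb3, Itga5, Itga6 and Itgav) and 2 fell (Itga9 and Itgb4), with a median of 0.16 (−0.51 with library totals and 1 rise), and 2 to 3 rose without low-flow pool A (2) or B (3) or sham pool G (2) or H (2). Itga9, the chain that binds tenascin, had 1.96, 1.58 and 4.68 FPKM at low flow and 14.4, 15.4 and 10.5 in sham arteries (log2 fold-change −2.28, SE 0.38, adjusted p = 0.00329).

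Most circadian clock genes fell and more splicing regulators rose than fell on the TMM scale. Of 17 tested clock genes 12 fell and 0 rose (median −1.53, or −2.07 with library totals), and 9 to 12 fell with any 1 pool left out. Per2, a repressor of the clock (chromosome 1, 93312561 to 93355907), had 0.665, 0.211 and 1.56 FPKM at low flow and 4.51, 5.58 and 3.59 in sham arteries (log2 fold-change −2.34, adjusted p = 0.00585), and Dbp, an output factor, 0.617, 0.734 and 3.46 against 10.9, 6.81 and 7.71 (log2 fold-change −2.20, adjusted p = 0.0109). Arntl (BMAL1), the activator that peaks opposite to them, had 1.96, 1.55 and 1.89 against 1.22, 1.67 and 1.62 FPKM (adjusted p = 0.505). The time of day at which the mice were killed is not given in the sources used here, and low-flow pool C was the highest low-flow pool for Per2 and Dbp. An E-box (CACGTG) was present in the 300-base promoter of 4 of 15 clock genes (26.7%), against 11.9% of tested genes. Splicing regulators had 15 of 34 higher and 3 lower (Nova2, Nova1 and Clk1), with a median of 0.37 (−0.32 with library totals, where 2 rose and 4 fell), and 9 rose without low-flow pool A or sham pool H and 3 without sham pool G, where 3 also fell. Mbnl3, of the muscleblind family, had 2.78, 1.94 and 1.99 FPKM at low flow and 0.317, 0.559 and 0.584 in sham arteries, and Nova2, a splicing factor of vessels and neurons, 0.495, 0.637 and 0.694 and 2.23, 1.83 and 1.29 (log2 fold-changes 2.15 and −1.57, adjusted p = 0.00173 and 0.00458).

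**Figure D3:**
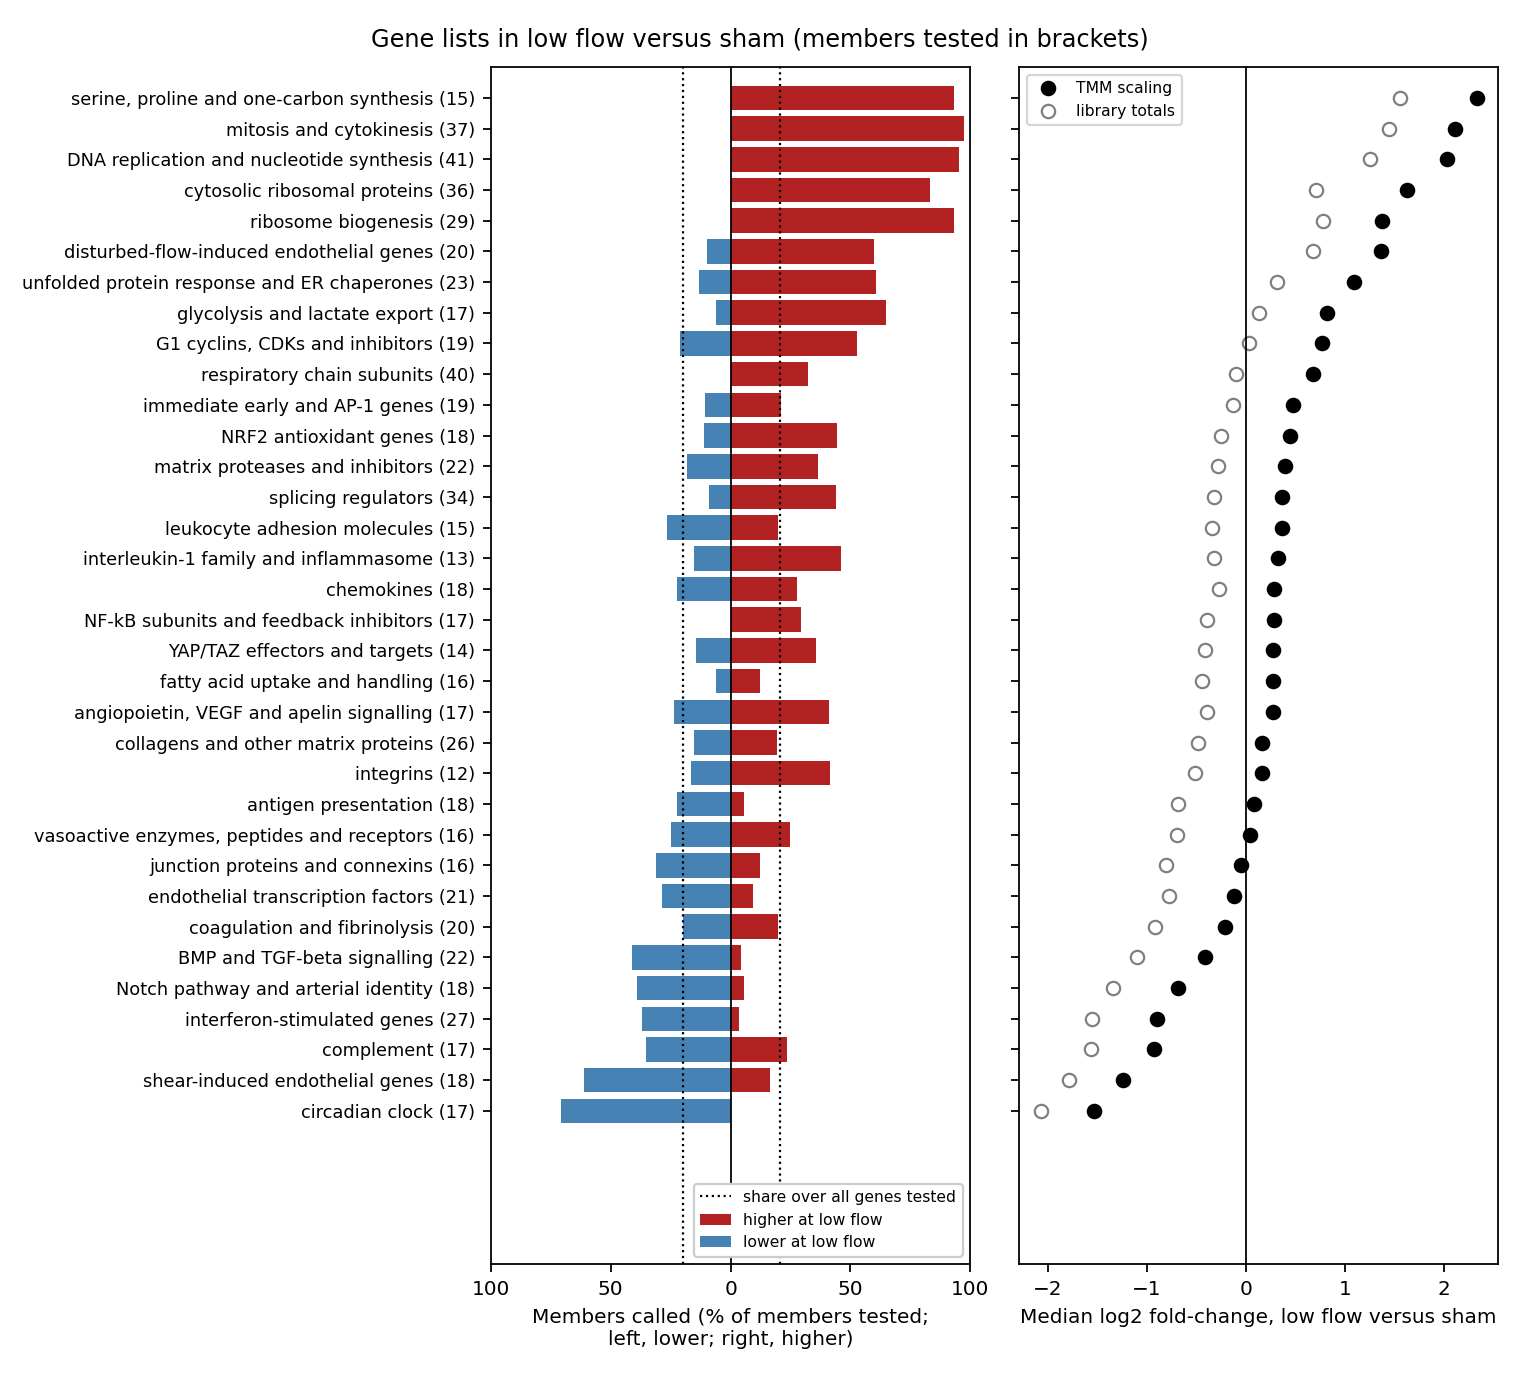
Left, the percent of tested members of each gene list called lower (blue) or higher (red) at low flow, with dotted lines at the shares over all genes tested, 20.6% higher and 19.7% lower. Bars and medians take all tested members, including those tested only through their counts at low flow. Over restricted members 22.2% of interleukin-1 genes and 18.8% of matrix proteases were higher. Right, the median log2 fold-change of each list with TMM scaling (filled) and with library totals (open), where the medians of 16 lists change from above to below 0.

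The 10 largest increases with a mean of at least 5 FPKM were Angpt2, Cd177, Il1r2, S100a8, H2-Q10, Cd300lf, Hdc, Cxcr2, Cyp4f18 and Sirpb1b. Hdc, which makes histamine, had 25.1, 62.7 and 21.9 FPKM at low flow and 0.825, 0.489 and 1.62 in sham arteries (log2 fold-change 5.14, adjusted p = 0.00112), and Cd300lf, an inhibitory receptor of myeloid cells, 21.4, 38.2 and 20.3 against 0.524, 0.207 and 1.21 (log2 fold-change 5.25, adjusted p = 9.74e-04). H2-Q10 and Sirpb1b have near-identical relatives among which reads may be divided, and are uncertain.

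The 10 largest decreases were Serpina1d, Klk10, Prrt4, Serpina1b, Ptprr, Ip6k3, Ly6c1, Tspan11, Nxnl2 and Calml4. Klk10, a secreted kallikrein-related protease (chromosome 7, 51036424 to 51040780), was among the most abundant of them, with 1124, 1058 and 810 FPKM in sham arteries and 9.55, 11.5 and 26.1 at low flow, 64.1-fold lower (log2 fold-change −6.00, SE 0.49, adjusted p = 9.74e-04). Ptprr, a phosphatase that acts on MAP kinases (chromosome 10, 115455269 to 115711988), had 88.1, 76.9 and 62.7 FPKM in sham arteries and 1.44, 2.62 and 5.63 at low flow (log2 fold-change −4.52, adjusted p = 0.00108). Calml4, a calmodulin-like protein, had nearly the same level in each sham pool, 26.8, 25.9 and 26.3 FPKM, and 2.29, 1.56 and 1.98 at low flow (log2 fold-change −3.74, SE 0.25, adjusted p = 9.74e-04). Serpina1d, an antitrypsin, had 464 counts over the sham pools and 3 at low flow, a ratio of 123 with a 95% exact interval of 41.7 to 597 for counting error alone, and Serpina1b 129 counts and 3, a ratio of 34.1 (11.4 to 168). These are near-identical copies and their division is uncertain, as is that of Ly6c1 from its neighbour.

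The contralateral high-flow arteries were set beside the same sham pools. By edgeR 0% of 11030 genes tested were called between high flow and sham, with 868 at an unadjusted p under 0.05, while DESeq2 called 101. The 5 genes given here were chosen after their values were seen. Klk10 had 2021, 1578 and 1639 FPKM in the high-flow pools D, E and F, Ptprr 194, 163 and 212, Calml4 61.6, 42.2 and 38.4, Id1 224, 158 and 168 and Edn1 78.5, 94.6 and 62.3. In each of these 5 genes the low-flow pools lay on the other side of the sham pools from the high-flow pools. The log2 fold-changes of high flow against sham were 0.79, 1.31, 0.83, 0.68 and −0.66 (adjusted p = 0.324, 0.310, 0.324, 0.362 and 0.362). The comparisons share the sham pools, so the values are given side by side only.

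Mice of other experiments gave the same genes a separate measurement, since they share no library with the pools above. Their low- and high-flow libraries may come from separate sequencing runs, and the part of this in the calls was not tested. Counts numbered 16474222 to 19035957 at low flow and 12286104 to 14084701 at high flow. With IgG 45.1% and with PBS liposomes 40.0% of 13019 genes were called between low and high flow, with 2 libraries a group. Of the 2298 genes higher against sham and tested there, 95.2% had the same sign with IgG and 74.0% were also called higher, and with PBS liposomes 95.2% and 64.5%. Of the 2160 lower genes 90.0% had the same sign with IgG and 58.0% were called lower, and with PBS liposomes 88.2% and 56.0%. Over all 11093 genes tested in both, 78.0% had the same sign with IgG and 77.0% with PBS liposomes. Klf2 had log2 fold-changes of −3.75 and −4.01 with IgG and PBS liposomes (adjusted p = 0.00292 and 0.00255), Angpt2 of 7.63 and 7.90 (0.00104 and 6.33e-04), Jam2 of −2.32 and −2.31 (0.00145 and 0.00126) and Phgdh of 2.95 and 2.93 (0.00367 and 0.00371).

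Part of the calls were not made in the treated mice, where the contrast was low against high flow. Of 4458 genes called against sham and tested in both treatments 2411 (54.1%) were called with the same sign in both, and 12 (0.269%) with the opposite sign in both, among them Lysmd2, Iah1 and Anp32a, lower against sham, and Eif4g2 and Lrch4, higher against sham, which were chosen after their values were seen. By edgeR the mitosis list had 17 of 37 members called higher with IgG and 0 with PBS liposomes (1 at an unadjusted p under 0.05, and 0 adjusted by DESeq2), with medians of 3.88 and 1.33, and the replication list 37 and 30 of 41. Itga5, the fibronectin receptor chain, had 116, 194 and 115 FPKM at low flow and 44.1, 41.2 and 53.2 in sham arteries (log2 fold-change 1.58, adjusted p = 0.00440), and log2 fold-changes of −0.18 and 0.16 in the treated mice (adjusted p = 0.537 and 0.585). Ddit3 had −0.43 and 0.03 there (adjusted p = 0.359 and 0.960). The respiratory chain, by contrast, had 36 and 35 of 40 members called higher.

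**Figure D4:**
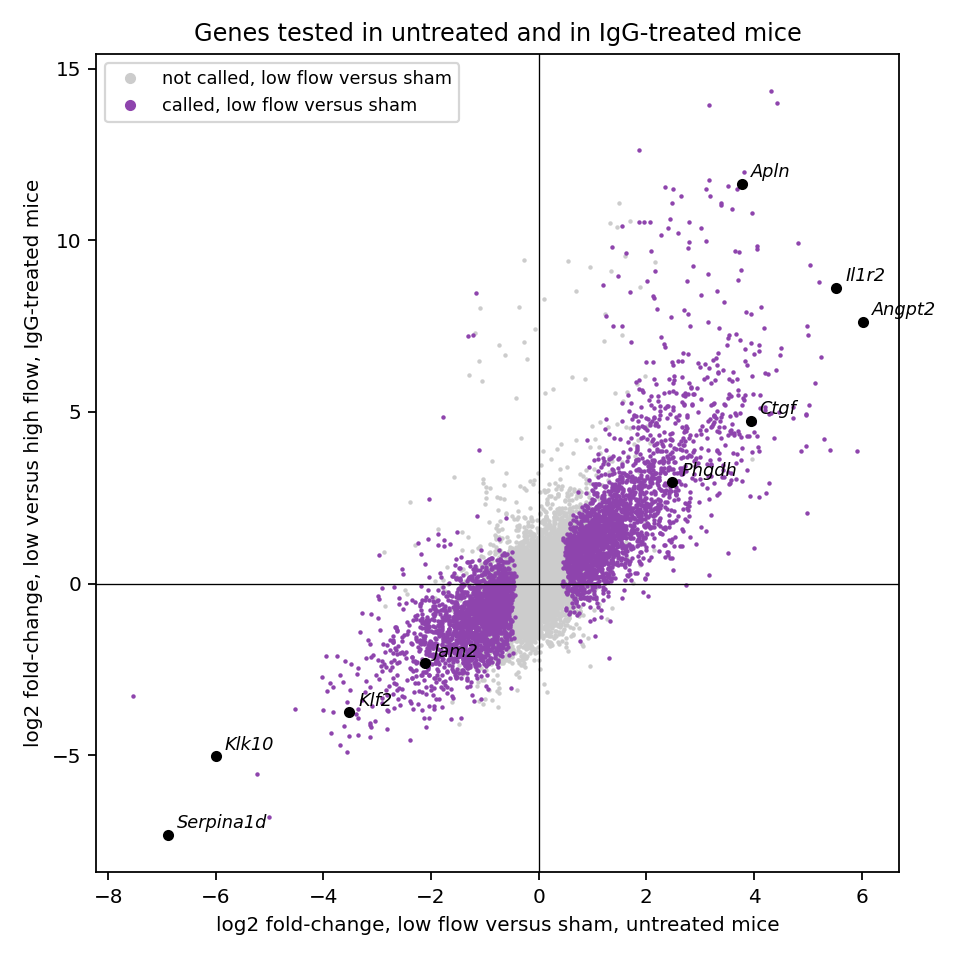
Log2 fold-change of low flow against sham in untreated mice (horizontal axis) and of low against high flow in IgG-treated mice (vertical axis), 1 point per gene, with genes called against sham in purple and 9 genes named in the text in black. Points far up the vertical axis are genes with no counts in the high-flow libraries, whose fitted values depend on the prior count. Most called genes lie in the quadrants where both values have the same sign, 95.2% of the higher and 90.0% of the lower genes.

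Genes defined in the treated mice also placed the single pools. For 1684 genes at least 2-fold higher at low flow with both IgG and PBS liposomes, the median of log2(normalised FPKM + 0.5) minus the mean of the high-flow pools was 1.36, 1.54 and 0.94 in the low-flow pools and 0.10, −0.27 and 0.42 in the sham pools. For 1085 genes at least 2-fold lower it was −1.08, −1.27 and −0.84 in the low-flow pools and −0.11, 0.05 and −0.32 in the sham pools. Low-flow pool C thus lay nearest to the sham pools and sham pool I nearest to the low-flow pools, on both sets and without overlap of the groups. For mitosis genes sham pool I reached 2.85, against 1.37 and 0.27 in sham pools G and H and 3.52 to 4.31 at low flow, and for leukocyte markers 2.52, against 0.74 and 1.38 and 4.62 to 5.82. With low-flow pool C and sham pool I both left out, a setting chosen after the data were examined, 5069 genes were called, 2615 higher and 2454 lower.

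**Figure D5:**
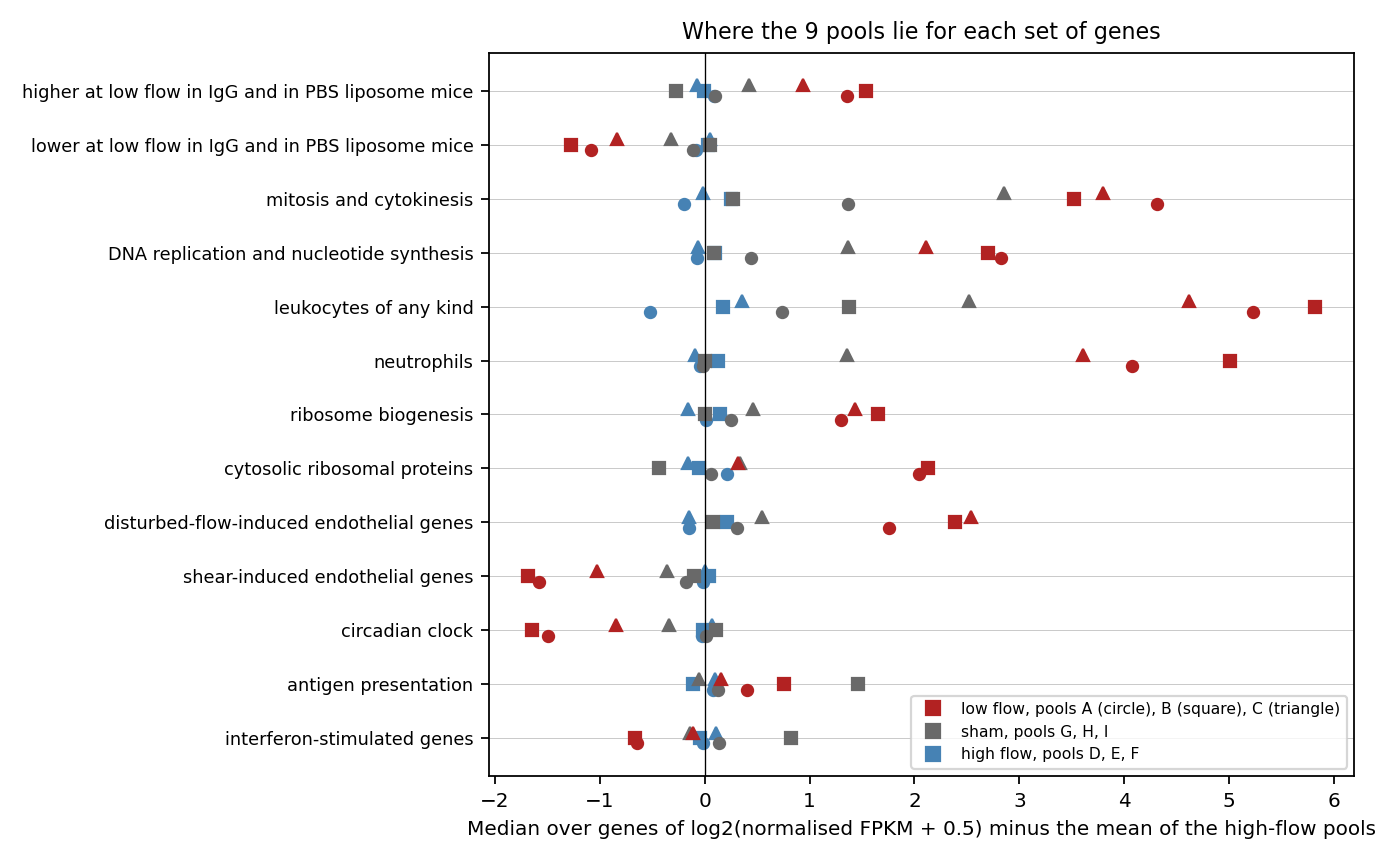
Median over the genes of each set of log2(normalised FPKM + 0.5) minus the mean of the high-flow pools (horizontal axis), 1 marker per low-flow (red), sham (grey) and high-flow (blue) pool. Low-flow pools lie apart from sham pools in most rows, sham pool I (triangle) is the sham pool nearest to low flow for mitosis, replication and leukocyte genes, and sham pool H (square) is the highest of all 9 pools for antigen presentation and interferon-stimulated genes.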

How the data were processed

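PolyA RNA flushed from the carotid intima of pooled mice was sequenced. The authors deposited expected counts per gene from RSEM, with FPKM and other columns beside them. The submitters' processing notes name STAR 2.5.1b, RSEM 1.2.15 and mm9, and whether counting used strand is not stated. Of 204 value columns 17 were used and 187 were not. Of 21675 entries 1 names no gene and was left out.

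After rounding to whole numbers, filterByExpr left out low genes, and low flow was tested against sham with the quasi-likelihood test of edgeR 4.0.16 (R 4.3.3) with TMM factors, from 0.549 to 1.27, and Benjamini-Hochberg adjusted p-values over all genes tested. The same test served the treated mice. The 3 pools of a group are separate flushes, and p-values measure the spread between pools only. Levels are expected counts per transcript length and TMM-scaled library size, a scale chosen after the data were examined. On simulated counts with 200 genes changed by a log2 change of 2, edgeR recovered 163 with 7 other calls. The simulation changed only well-counted genes, and used the same dispersion for all genes and the same composition in each pool. It therefore gives no error rate for the real pools, whose composition differed. DESeq2 1.42.0, other scalings and filters, and leaving out each pool were alternatives.

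The 34 gene lists, 15 marker lists and members were chosen with earlier results of these data known. Genes named are key genes of the lists, up to 2 called members of each list in each direction with the largest change and pools that do not overlap, and the 10 largest changes in each direction with a mean of at least 5 FPKM in the higher group. The text gives part of the former, and some genes are not reported here. Promoters come from RefSeq (GRCm38.p6).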

Additional observations from a re-analysis of the deposited data

How the results depend on the processing

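Leaving out 1 pool gave 2513 to 4757 calls between low flow and sham in place of 4499, 1265 to 2416 of them higher and 1244 to 2341 lower, the fewest without sham pool G for all calls and for higher calls and without low-flow pool A for lower calls. Requiring at least a 2-fold change left 2869 calls, 1275 of them lower. Library totals left 3358 calls, 642 of them higher, and leaving out sham pools H and I together, chosen after seeing the data, gave 2005 calls, 1179 higher and 826 lower. DESeq2 gave 101 calls between high flow and sham. Of 160 named genes that were called, 100 kept the call under all 12 alternatives other than the 2 chosen after seeing the data, and Ccnd1 turned direction with library totals, at −0.01. Of the genes named without a call, library totals reversed Vcam1 (−0.16), Icam1 (−0.34), Gja5 (−0.79), Cdh5 (−0.64) and Arntl (−0.42), and sham pools H and I left out reversed Cd3e (2.69) and Erg (0.23). With 1 pool left out Cd3e ranged from −2.17 to 0.77, Cdh5 from −0.02 to 0.27, Erg from −0.31 to 0.08, Gja5 from −0.09 to 0.33, and the difference in skeletal muscle share from -1.27e-04 to 0.00171 percentage points. The cause of these changes was not tested. No paired analysis was possible because the columns carry pool letters that differ between the groups, and sham and low-flow pools came from different mice. The first sequencing run and the sum of both runs were not run, since pool letters cannot be tied to replicate numbers. Counting depth limits genes such as Apln, with 13 counts over the sham pools.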
